A study of Mus musculus with 88 samples.

Results

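The 9 genes described here are Ppp1r1b, Bcl11b, Foxp1, Foxp2, Rasd2, Arpp21, Meis2, Rarb and Drd3, genes used in common by the D1 and D2 medium spiny neurons of the striatum. They were taken by symbol from a table of read counts for 55487 mouse genes, in which each of the 9 symbols matched 1 row. Medium spiny neurons are the GABAergic projection neurons that make up most of the nucleus accumbens; the direct-pathway type carries the dopamine receptor Drd1 and the indirect-pathway type carries Drd2. Both types share a set of transcription factors that fix and keep their identity (Bcl11b, Foxp1, Foxp2, Meis2 and Rarb among them) and a set of signalling proteins that handle cAMP and dopamine signals (Ppp1r1b, Arpp21 and Rasd2). Drd3 encodes a further dopamine receptor, found mainly in the ventral striatum and the islands of Calleja.

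RNA came from dissected nucleus accumbens of female (F) and male (M) mice backcrossed to C57BL/6, 6 days after surgery; the labels give no age. All mice received 2 herpes simplex vectors. In targeted and control groups alike, 1 of them carried the same activator, CREB(S133D), a constitutively active form, joined to a Cas9 that cannot cut DNA. The other carried a guide RNA, either g11, directed to Fosb (targeted), or gNT, which is not targeted (control). The D1 arms used D1-Cre mice and the D2 arms D2-Cre mice, with vectors that needed Cre. In the D1-D2 arms the vectors did not need Cre, and the mice, per the labels, were also D1-Cre. The libraries used numbered 6 F_D1-targeted and 8 F_D1-control, 7 M_D1-targeted and 4 M_D1-control, 8 F_D2-targeted and 8 F_D2-control, 7 M_D2-targeted and 8 M_D2-control, 12 F_D1-D2-targeted and 8 F_D1-D2-control, and 4 M_D1-D2-targeted and 7 M_D1-D2-control, 87 in 12 groups. Sequencing batch 2 held 9 male D2 libraries (3 targeted, 6 control), and batch 1 the other 78. The RNA is of whole dissected tissue, not of sorted or infected cells, so in every result here fewer cells of a type and less RNA per cell cannot be told apart. The labels do not say whether libraries of a group came from separate animals, so p-values measure the spread between these libraries.

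Total counts ran from 12430387 to 69568367 per library (median 31393804). In 4 libraries, all with the Fosb guide, over 90% of the counts lay in the 10 most abundant genes, so less depth is left for the 9 genes there. Next came F_D1-control 17457 (79.1%), F_D1-targeted 16754 (62.6%), M_D1-control 18383 (56.2%) and F_D1-D2-targeted 19597 (53.8%). Fits said to be without the dominated libraries leave out only the 4. Libraries 18749 (M_D1-D2-targeted) and 18722 (M_D1-targeted) were the most alike pair (Pearson r 0.997 across genes), and 1 female library, 17376, held Y-linked transcripts; results are given without these where they change. The targeted gene itself, Fosb, averaged 9.70 ± 2.38 CPM (read counts relative to the library total, scaled by the TMM method) in F_D1-targeted and 7.29 ± 1.51 in F_D1-control, 6.29 ± 1.32 in M_D1-targeted and 4.51 ± 0.389 in M_D1-control, and 10.7 ± 5.04 in M_D1-D2-targeted and 7.25 ± 3.36 in M_D1-D2-control (SD). It averaged 6.56 ± 2.81 CPM in F_D2-targeted and 7.71 ± 1.86 in F_D2-control, 6.31 ± 1.15 in M_D2-targeted and 9.52 ± 3.52 in M_D2-control, and 6.89 ± 2.53 in F_D1-D2-targeted and 6.71 ± 1.93 in F_D1-D2-control (SD). No arm's Fosb difference passed adjustment in the edgeR quasi-likelihood test (log2 0.41, 0.48 and 0.60 in F_D1, M_D1 and M_D1-D2; -0.37, -0.30 and 0.08 in F_D2, M_D2 and F_D1-D2; smallest unadjusted p 0.0315, in M_D1-D2). In batch 2 of the male D2 arm Fosb averaged 7.25 ± 1.04 CPM in 3 targeted libraries and 11.1 ± 1.97 in 6 controls (SD; two-sided exact permutation p 0.0119, the smallest that the 84 splits allow). In batch 1 it averaged 5.60 ± 0.601 CPM in 4 targeted libraries and 4.84 ± 2.95 in 2 controls, the other way round (SD; exact permutation p 0.533), and with splits within both batches the log2 difference was -0.22 (exact permutation p 0.352).

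Of RefSeq promoter windows (300 bases around a transcript start, most of them before it, GRCm38.p6), 17 belonged to 7 of the genes; Ppp1r1b and Foxp2 are named only. The windows shown, of 2 genes, are those that held a match to a motif searched for. Several of the 17 windows are of Arpp21, and some of those overlap. Rarb encodes a nuclear receptor for retinoic acid and is known as a target of its own receptor class through a direct repeat in its promoter. The Rarb window at chr14:16575427-16575726 on the minus strand held the repeat searched for, 2 copies of GTTCAC with 5 bases between them, at bases 199 to 215, which are in capitals. The Arpp21 window at chr9:112185900-112186199 on the minus strand held TGANTCA, the AP-1 motif bound by Fos and Jun proteins, at bases 149 to 155, in capitals.
Rarb: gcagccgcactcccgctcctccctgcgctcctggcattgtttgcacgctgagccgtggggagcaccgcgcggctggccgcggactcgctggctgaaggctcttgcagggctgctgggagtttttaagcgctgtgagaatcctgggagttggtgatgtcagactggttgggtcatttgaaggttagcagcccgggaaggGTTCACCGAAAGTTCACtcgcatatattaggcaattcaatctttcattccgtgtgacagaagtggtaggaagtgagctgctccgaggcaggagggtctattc
Arpp21: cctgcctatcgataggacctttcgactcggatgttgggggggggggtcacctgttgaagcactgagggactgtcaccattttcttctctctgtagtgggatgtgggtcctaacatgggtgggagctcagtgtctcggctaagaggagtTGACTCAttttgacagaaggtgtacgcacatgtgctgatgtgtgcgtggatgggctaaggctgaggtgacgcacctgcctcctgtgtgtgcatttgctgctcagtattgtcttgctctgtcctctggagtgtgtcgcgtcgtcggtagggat
On either strand the retinoic acid repeat was found in 1 of the 17 windows, that of Rarb, and in 2 of 32851 windows of all genes (0.00609%). The Rarb repeat was known before the search, so this count says nothing about the genes as a set. The AP-1 motif was found in 1 of the 17 and in 7.81% of all windows. The CREB motif TGACGTCA was found in 0 of the 17 and in 1.79% of all windows. A match is a description of these letters, and no binding was measured.

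All 9 genes passed the filter on low counts. In CPM per kilobase of exon, the unit in which levels of different genes can be compared, Ppp1r1b was highest, at 119 over the 87 libraries, followed by Rasd2 at 70.5 and Arpp21 at 44.2. The transcription factors followed, with Meis2 at 20.02, Bcl11b at 19.4, Rarb at 16.7, Foxp1 at 10.3 and Foxp2 at 3.38 CPM per kilobase, and Drd3 was lowest at 2.75. The 3 signalling genes thus stood above the 5 transcription factors, and the receptor Drd3 below all of them. Drd3 had 0 counts in 1 library, F_D1-D2-targeted 19610, one of the 4 dominated by few genes, which allows a level of up to 4.82 CPM there (3 counts, covering counting error alone).

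Ppp1r1b (ENSMUSG00000061718.12, chr11:98348404-98357796, plus strand, mm10) encodes DARPP-32, the dopamine- and cAMP-regulated inhibitor of protein phosphatase 1. It averaged 349.7 CPM over the 87 libraries with an SD of 125.8, and single libraries ran from 65.4 (M_D2-control 3631) to 833.9. Its group means ran from 250.0 ± 38.5 CPM in M_D1-control to 446.5 ± 127.7 in F_D1-D2-control (SD, n = 4 and 8). The transcript 1700003D09Rik overlaps 15.7% of its exon length on the opposite strand.

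Rasd2 (ENSMUSG00000034472.13, chr8:75213944-75224113, plus strand) encodes Rhes, a small G protein enriched in striatum. It averaged 223.9 CPM with an SD of 81.7 over the 87 libraries, from 33.3 (M_D1-D2-control 19511) to 510.0. Its group means ran from 128 ± 17.6 CPM in M_D1-control to 289.8 ± 58.8 in F_D1-D2-control (SD, n = 4 and 8), the widest relative span of group means among the signalling genes. Arpp21 (ENSMUSG00000032503.18, chr9:112065091-112235938, minus strand) encodes ARPP-21, a cAMP-regulated phosphoprotein. It averaged 769.6 CPM with an SD of 193.4, from 364.3 (again 19511) to 1327. Its highest group mean, 878.0 ± 107.1 CPM, was in M_D1-control, the group that was lowest for Ppp1r1b and Rasd2, and its lowest, 678.9 ± 139.4, was in F_D2-targeted (SD, n = 4 and 8).

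Among the transcription factors, Bcl11b (ENSMUSG00000048251.15, chr12:107910403-108003602, minus strand) encodes CTIP2, a zinc finger protein needed for medium spiny neuron differentiation that is also used by T cells. It averaged 157.6 CPM with an SD of 54.1, and its group means ran from 96.1 ± 11.6 in M_D1-control to 210.7 ± 65.1 in M_D2-control (SD, n = 4 and 8). Foxp1 (ENSMUSG00000030067.17, chr6:98925338-99522721, minus strand) and Foxp2 (ENSMUSG00000029563.16, chr6:14901349-15441977, plus strand) encode forkhead factors that can pair with each other. Foxp1 ran from 89.5 ± 10.6 CPM in M_D1-control to 240.9 ± 111.6 in M_D2-control, and Foxp2 from 33.0 ± 2.83 to 88.8 ± 35.2 in the same groups. Foxp1 had the largest coefficient of variation of the 9 over all libraries (45.3%). Both Foxp1 and Bcl11b differed between the batches of M_D2-control: Foxp1 averaged 286.2 CPM in its 6 batch 2 libraries and 104.8 in its 2 batch 1 libraries, and Bcl11b 243.4 and 112.5. The high means of M_D2-control come from its batch 2 libraries.

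Meis2 (ENSMUSG00000027210.20, chr2:115863064-116065839, minus strand) encodes a homeodomain factor of striatal progenitors and neurons. It varied least, with a coefficient of variation of 23.3%, and its group means ran from 207.6 ± 41.8 CPM in F_D2-targeted to 284.9 ± 49.3 in M_D2-control (SD, n = 8 each). Rarb (ENSMUSG00000017491.9, chr14:16430839-16819156, minus strand) averaged 87.9 CPM with an SD of 25.5. Its group means ran from 77.1 ± 29.0 CPM in M_D1-D2-control to 116.9 ± 39.4 in M_D2-control (SD, n = 7 and 8). The oppositely oriented Top2b shares 34.1% of the exon length of Rarb, and the sources used here do not give the strand setting of the counting, so some Rarb counts could be reads of Top2b. Drd3 (ENSMUSG00000022705.5, chr16:43754026-43822932, plus strand) averaged 4.70 CPM with an SD of 1.79, with group means from 3.35 ± 0.804 in M_D1-control to 6.26 ± 2.11 in M_D2-control (SD, n = 4 and 8).

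Group order was read from the means. For Rasd2 it ran, from low to high, M_D1-control (128 CPM), M_D1-targeted (182.3), F_D2-targeted (186.6), M_D1-D2-control (199.4), M_D2-targeted (203.0), M_D2-control (214.6), M_D1-D2-targeted (226.6), F_D2-control (236.6), F_D1-targeted (238.8), F_D1-D2-targeted (251.5), F_D1-control (262.3) and F_D1-D2-control (289.8). No neighbours in that order differed by more than the larger of their SDs. The same held for the 11 neighbouring pairs of each of the other genes, with 1 exception: Foxp1 averaged 106.3 ± 15.0 CPM in F_D2-targeted and 89.5 ± 10.6 CPM in M_D1-control (SD, n = 8 and 4).

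**Figure D1:**
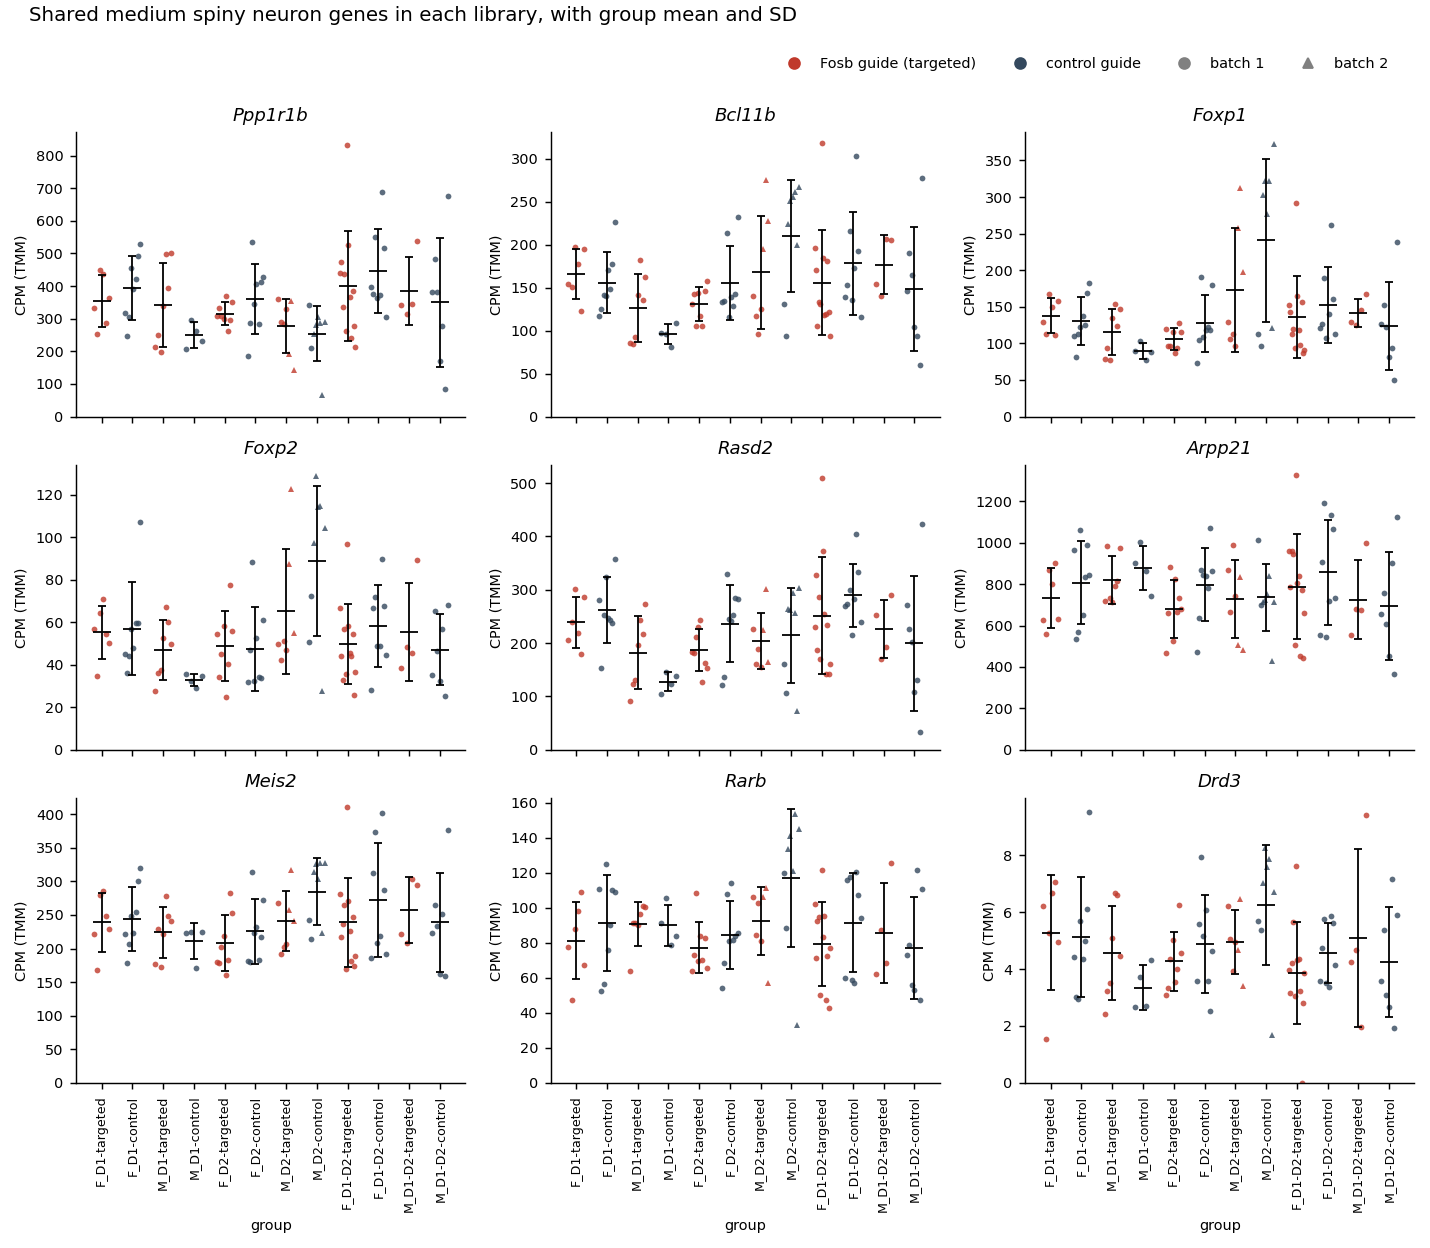
CPM of each gene (vertical axes, linear, from 0) in each of the 87 libraries by group (horizontal axes), red for the Fosb guide and blue for the control guide, circles for batch 1 and triangles for batch 2; bars give the group mean and SD. M_D1-control sits low and tight for Foxp2 (29.2 to 35.6 CPM) and Rasd2 (105.4 to 145.1 CPM), and the batch 2 triangles of M_D2-control sit high for Foxp1 and Bcl11b.

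The first comparison asked whether the Fosb guide changed these genes. It was called (adjusted p under 0.05 in the edgeR quasi-likelihood test across all 25420 genes, Benjamini-Hochberg adjustment) for 0 of the 9 genes in each of the 6 arms, where the share of all genes called was 0.00393% in F_D1, 0% in M_D1, 0% in F_D2, 0.0629% in M_D2, 0% in F_D1-D2 and 0.00393% in M_D1-D2. No member reached an unadjusted p under 0.05 in any arm either; the smallest was 0.104 for Foxp2 in M_D1. Of all genes, 4.48% had an unadjusted p under 0.05 in F_D1, 7.11% in M_D1, 1.66% in F_D2, 2.18% in M_D2, 3.4% in F_D1-D2 and 3.22% in M_D1-D2. DESeq2 and limma-voom also called 0 members in every arm. Targeted and control libraries overlapped for all 9 genes in all 6 arms. The share of all genes that overlap in this way was not computed, so the overlap is a description only.

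Rasd2 shows the pattern. In males of the D1 arm it had 92.1 to 273.3 CPM in M_D1-targeted libraries (median 197.1) and 105.4, 145.1, 122.8 and 138.1 CPM in the M_D1-control libraries. The targeted libraries ran both below and above the 4 controls, with 4 of 7 above them all and 1 below them all, and the log2 fold change was 0.51 (SE 0.33, unadjusted p 0.126). In females of the D1 arm it had 179.9 to 302.3 CPM in F_D1-targeted libraries (median 228.9) and 154.0 to 358.4 in F_D1-control libraries (median 250.6), a log2 fold change of -0.14 (SE 0.28). In females of the D2 arm it had 126.7 to 243.2 CPM in F_D2-targeted libraries (median 182.9) and 121.2 to 329.3 in F_D2-control libraries (median 248.8). That arm gave the lowest estimate for Rasd2, a log2 fold change of -0.34 (SE 0.26, unadjusted p 0.195), and 0 of the 8 targeted libraries lay above the control median.

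Foxp2 had 27.7 to 67.0 CPM in M_D1-targeted libraries (median 49.7) and 35.6, 32.5, 29.2 and 34.8 CPM in M_D1-control libraries. Of the 7 targeted libraries 6 lay above all 4 controls and 1 below them all, and the log2 fold change was 0.52 (SE 0.31). Ppp1r1b, Bcl11b, Foxp1 and Drd3 had estimates between 0.37 and 0.46 in this arm, while Arpp21, Meis2 and Rarb had -0.10, 0.09 and 0.01. The median of the 9 was 0.398 in M_D1, against 0.0298 for all genes tested. All M_D1 estimates are set against the same 4 M_D1-control libraries, the fewest of any control group.

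The estimates of the remaining arms lay between -0.34 and 0.40. In F_D1-D2 they ran from -0.23 to -0.12 (median -0.189, against -0.0039 for all genes), and in M_D1-D2 from 0.06 to 0.40 (median 0.188, against -0.0263). In F_D2 8 of 9 estimates were below 0 and in M_D2 7 of 9, with medians of -0.191 and -0.125 (-0.0253 and 0.0114 for all genes). In F_D1 they ran from -0.17 to 0.09. Averaged over the 6 arms with equal weight, the 9 estimates ran from -0.11 (Arpp21, SE 0.08) to 0.05 (Bcl11b, SE 0.09), and 0 were called, as for all genes (0%; 9.52% of all genes and 0 of the 9 had an unadjusted p under 0.05).

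Within the male D2 arm, batches were also compared apart. In batch 1 Rasd2 had 226.3, 160.9, 188.1 and 155.3 CPM with the Fosb guide and 159.9 and 105.8 CPM with the control guide, and in batch 2 301.5, 225.3 and 163.8 CPM with the Fosb guide and 293.7, 256.2, 261.6, 264.9, 302.9 and 71.8 CPM with the control guide. The guides overlapped in both batches. Over the 9 genes the two-sided exact permutation p was at least 0.133 in batch 1, where the 15 splits allow no less than 0.0667, at least 0.417 in batch 2 (84 splits), and at least 0.25 with splits within both batches (1260).

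**Figure D2:**
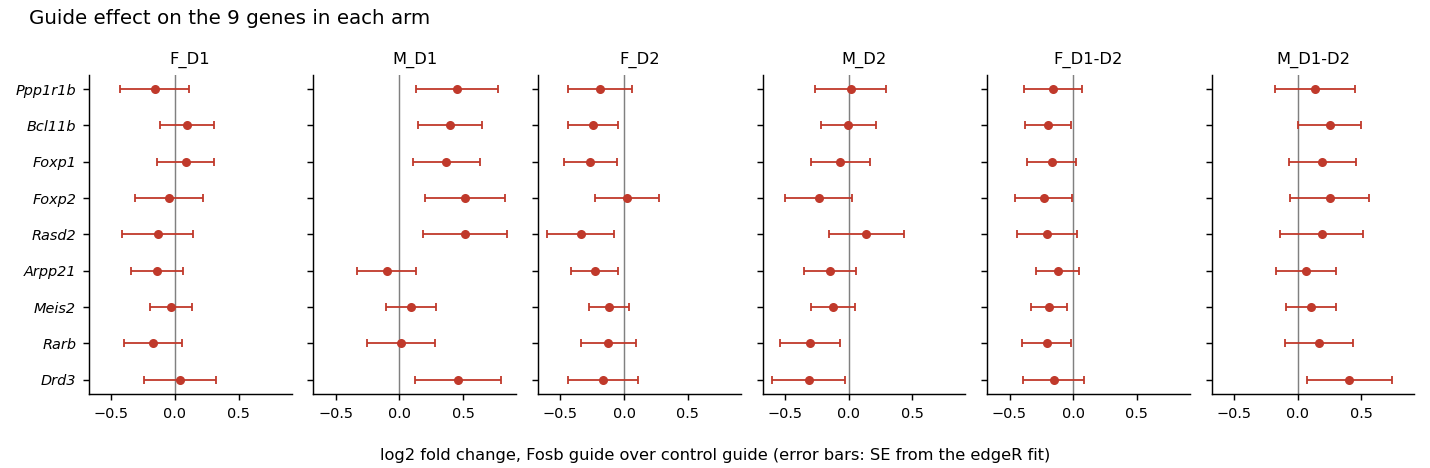
Log2 fold change of each gene, Fosb guide over control guide, in each of the 6 arms (horizontal axes, with a line at 0); points are estimates of the edgeR fit and bars their SE. Estimates run from -0.34 (Rasd2, F_D2) to 0.52 (Foxp2, M_D1).

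The guide effect was then compared between sexes and between cell types. The female guide effect minus the male one, averaged over arms, was below 0 for all 9 genes, from -0.51 for Rasd2 to -0.10 for Arpp21, with 0 of 9 called (0% of all genes). Rasd2 had an unadjusted p of 0.0349 and an adjusted p of 0.737 (SE 0.24); 6.59% of all genes had an unadjusted p under 0.05. The D1 guide effect minus the D2 guide effect was above 0 for all 9 genes, from 0.07 (Arpp21) to 0.49 (Drd3, SE 0.30, unadjusted p 0.103), and again 0 of 9 were called (0.00393% of all genes); 0 of 9 and 3.65% of all genes had an unadjusted p under 0.05. DESeq2 and limma-voom called 0 members in either difference. The medians over the 9 were -0.275 for the sex difference and 0.289 for the cell type difference, against -0.0095 and 0.0254 for all genes.

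Other striatal genes gave the same counts. Of 16 further genes of striatal neurons and 11 relatives of the members (paralogs and the other dopamine, Foxp, Meis and retinoic acid receptor genes), 0 were called between guides in any arm. The smallest unadjusted p in any arm among the 16 was that of Dlx5, a homeobox factor of GABAergic neurons, in M_D1 (log2 0.59, p 0.0455, adjusted p 0.686). Among the 11 it was that of Rarg, the retinoic acid receptor gamma, in M_D1 (log2 0.60, p 8.76e-04, adjusted p 0.686). Neither passed.

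Female and male mice were compared over control libraries. Female controls (F_D1-control, F_D2-control and F_D1-D2-control, with equal weight) minus male controls were called for 2 of 9 genes, Rasd2 and Bcl11b, both higher in females, where 28.6% of all genes were called (15.3% higher, 13.2% lower). Of the calls over all genes 53.7% were higher in females, and 35.5% with DESeq2's size factors, under which the same 2 members were called. At an unadjusted p under 0.05 there were 4 of 9 members and 39.8% of all genes. Rasd2 had 154.0 to 358.4 CPM in F_D1-control (median 250.6), 121.2 to 329.3 in F_D2-control (median 248.8) and 214.6 to 404.9 in F_D1-D2-control (median 277.9). In males it had 105.4, 145.1, 122.8 and 138.1 CPM in M_D1-control, 71.8 to 302.9 in M_D2-control (median 258.9) and 33.3 to 422.6 in M_D1-D2-control (median 202.5). Every F_D1-control library lay above every M_D1-control library, while the sexes overlapped in the D2 and D1-D2 controls. The share of all genes that separate F_D1-control from M_D1-control in this way was not computed. The log2 difference was 0.73 (SE 0.19, adjusted p 0.00236).

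Bcl11b had 116.6 to 226.3 CPM in F_D1-control (median 145.2), 115.4 to 232.4 in F_D2-control (median 137.1) and 116.2 to 303.7 in F_D1-D2-control (median 162.9). In males it had 97.5, 96.3, 81.0 and 109.4 CPM in M_D1-control, 94.2 to 267.8 in M_D2-control (median 237.8) and 60.4 to 277.3 in M_D1-D2-control (median 146.6). As for Rasd2, every F_D1-control library lay above every M_D1-control library, and the share of all genes that do so was not computed. The log2 difference was 0.46 (SE 0.14, adjusted p 0.00927), estimated with a batch term; M_D2-control has 2 libraries in batch 1, with 130.8 and 94.2 CPM.

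Ppp1r1b (log2 0.42, SE 0.18, adjusted p 0.0604) and Foxp1 (0.34, SE 0.15, adjusted p 0.0692) were not called. Foxp2, Drd3, Meis2, Arpp21 and Rarb had differences of 0.27, 0.14, 0.12, 0.01 and -0.05. The median of the 9 was 0.272, against 0.0016 for all genes. Rasd2 and Bcl11b were called under all 13 alternative settings, Rasd2 with 0.64 to 0.79 and Bcl11b with 0.38 to 0.48. These settings include batch 1 alone, but no fit of both batches without a batch term. Several of them were added after the data were seen, batch 1 alone and Cd3e as a covariate included. Ppp1r1b was called with Slc17a7 as a covariate (adjusted p 0.0487) and without M_D1-control 18068 (0.0495).

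Of the 16 other striatal genes 8 were called, all higher in female controls (5, all higher, with DESeq2's size factors). They included Gad1, a GABA-synthesizing enzyme (log2 0.38, adjusted p 0.00194), Adcy5, the main striatal adenylyl cyclase (0.65, 0.00347), Gnal, the G protein subunit that couples dopamine receptors to it (0.42, 0.00911), and Slc32a1, the vesicular GABA transporter (0.46, 0.0142). Of the 11 relatives 5 were called, all higher in female controls (4 with DESeq2's size factors), with Meis3 (0.26, 0.00355), Drd2 (0.70, 0.00465), Foxp4 (0.47, 0.00623) and Rarg (0.31, 0.00944) leading. Markers of other cell types were also called, none of them lower in female controls (1 oligodendrocyte gene was lower with DESeq2's size factors): 1 of 8 T cell genes, 1 of 8 cortical, 1 of 5 astrocyte, 2 of 5 microglia, 1 of 5 oligodendrocyte, 2 of 5 interneuron, 0 of 5 septal and 0 of 5 choroid plexus genes. Summed T cell markers ran from 19.8 to 187.7 CPM in female controls and from 8.59 to 157.9 CPM in male controls, summed cortical markers from 61.1 to 909.6 CPM and from 69.4 to 1177 CPM, and summed microglia markers from 354.0 to 1088 CPM and from 269.2 to 936.9 CPM. No T cell, cortical or microglia marker was at 0 in every library of a control group, and 1 cortical marker was at 0 in at least 1 female control. Their part in the difference was not tested. Rasd2 and Bcl11b were called with Cd3e and with Slc17a7 in the model, each 1 transcript, and no microglia or astrocyte gene was used as a covariate.

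**Figure D3:**
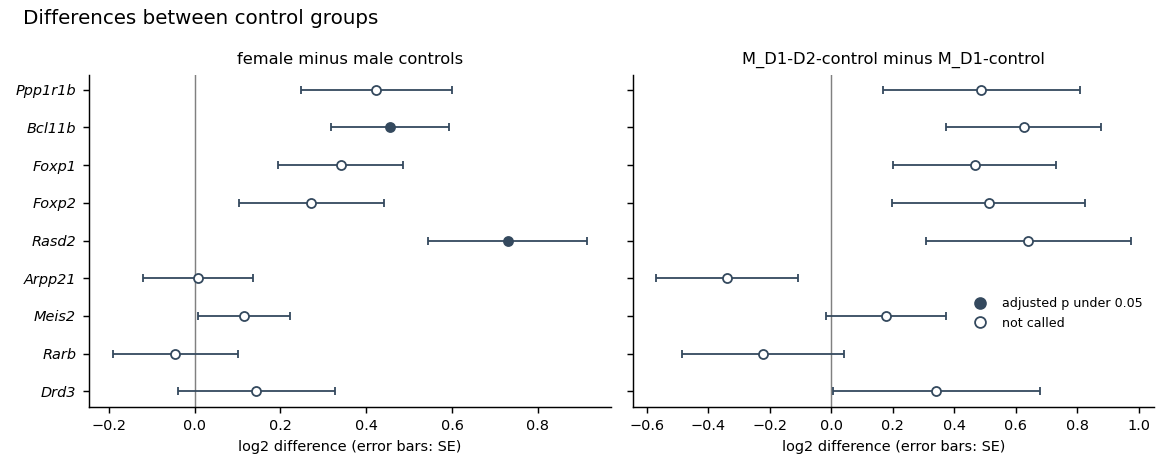
Log2 differences of each gene between control groups, female minus male controls (left) and M_D1-D2-control minus M_D1-control (right); bars give the SE and filled points the genes with an adjusted p under 0.05. Rasd2 (0.73) and Bcl11b (0.46) are the filled points on the left, and on the right no point is filled.

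Vectors that do not need Cre were set against those that do in D1-Cre males with the control guide. M_D1-D2-control minus M_D1-control was called for 0 of 9 genes, where 10.1% of all genes were called. Of those calls 74.6% were higher in M_D1-D2-control, and 60.9% with DESeq2's size factors. The count over all genes fell to 0 without M_D1-control 18068, 407 without 17789 and 613 without 18069, against 2567 with all libraries, and 0 members were called in each case. At an unadjusted p under 0.05 there was 1 of 9 members, Bcl11b, and 25.9% of all genes. DESeq2 called 0 members. Limma-voom called Bcl11b (adjusted p 0.00229) as 1 of 8898 called among all 25420 genes. Bcl11b had 60.4 to 277.3 CPM in M_D1-D2-control (median 146.6) and 97.5, 96.3, 81.0 and 109.4 CPM in M_D1-control, a log2 difference of 0.63 (SE 0.25, adjusted p 0.0955). Rasd2 had 0.64 (SE 0.33, adjusted p 0.211). Arpp21 and Rarb, at -0.34 and -0.22, went the other way. Among the other genes Slc32a1 (0.82, adjusted p 0.0422), Rarg (0.74, 0.0141), Meis3 (0.48, 0.0171) and Foxp4 (0.82, 0.0289) were called, 1 of 16 and 3 of 11, all higher in M_D1-D2-control; with DESeq2's size factors it was 0 of 16, and 3 higher and 1 lower of 11. Of the markers of other cell types, the astrocyte transporter Slc1a3 (0.86, adjusted p 0.0268) and the microglial receptor Cx3cr1 (0.71, 0.0382) were called higher. Each was 1 of 5 on its list, where 10.1% of all genes were called. With DESeq2's size factors 1 astrocyte and 0 microglia genes were called. Summed astrocyte markers ran from 1006 to 2903 CPM in M_D1-D2-control and from 602.1 to 1451 in M_D1-control, and summed microglia markers from 430.9 to 936.9 and from 303.0 to 656.5 CPM in the same groups, with none at 0 in any of these libraries. The log2 differences of the 5 interneuron genes were all above 0 (median 0.736), with 0 called, as for the T cell, cortical, septal, choroid plexus and oligodendrocyte genes. Their part in the values of the 9 genes was not tested.

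M_D1-D2-control 19511 had the lowest or nearly the lowest level of every member. It was among the lowest 5 libraries for 9 of 9 genes, with Rasd2 at 33.3, Bcl11b at 60.4 and Foxp1 at 49.9 CPM. Its 9 members summed to 826.1 CPM, against a median of 1983 over all libraries. Its summed D1 and D2 markers were the second lowest of 87 (205.2 and 320.1 CPM) and its summed T cell markers the lowest (8.59 CPM, median 104.8), while its oligodendrocyte markers (2860 CPM, median 2032) and choroid plexus markers (43.4 CPM, median 18.7) were high. Without it and M_D2-control 3631, a male library of another arm that was also low in the members, Bcl11b (log2 0.76, adjusted p 0.0229) and Rasd2 (0.83, adjusted p 0.0347) were called. The count over all genes for M_D1-D2-control minus M_D1-control was then 4625, against 2567 with all libraries.

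In females neither control comparison called a member. F_D2-control minus F_D1-control gave estimates from -0.26 (Foxp2) to -0.01 (Bcl11b), all 9 below 0, with 0 of 9 called (0.0197% of all genes; at an unadjusted p under 0.05, 0 of 9 and 3.91%). F_D1-D2-control minus F_D1-control gave -0.17 (Drd3) to 0.23 (Foxp1), with 0 of 9 called (0.00393% of all genes; at an unadjusted p under 0.05, 0 of 9 and 3.98%). DESeq2 and limma-voom called 0 members in both. These comparisons share F_D1-control. A test over all 6 control groups called Rasd2 alone (adjusted p 0.0375), with Bcl11b at 0.0673, where 16.5% of all genes were called (29.9% at an unadjusted p under 0.05, with 2 of 9 members). That call was lost with DESeq2's size factors, without the low-count filter, without the 4 dominated libraries and without any 1 of the 4 M_D1-control libraries (17789, 18068, 18069 and 18383). A test over all 12 groups called 0 of 9 (16.4% of all genes), with Rasd2 at 0.0934 and Bcl11b at 0.0986. These 2 had an unadjusted p under 0.05, as had 28.3% of all genes. With limma-voom this test called 3 members, and 10563 of all 25420 genes.

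The last comparison set the 9 genes against a T cell and a cortical transcript across libraries. Cd3e encodes a chain of the T cell receptor complex, and Slc17a7 the vesicular glutamate transporter VGLUT1 of cortical excitatory neurons; neither is a gene of medium spiny neurons. Cd3e ran from 0 to 16.4 CPM over the libraries (median 4.61) and was under 1 CPM in 11 of 78 batch 1 libraries and 3 of 9 batch 2 libraries. Both ends lie in libraries dominated by few genes. The 16.4 CPM was 16 counts in F_D2-targeted 17907. F_D1-D2-targeted 19610 and M_D1-D2-targeted 18919 had 0 counts. That allows up to 4.82 and 2.97 CPM in them (3 counts, covering counting error alone). Slc17a7 ran from 2.26 to 763.7 CPM (median 24.8). For each gene a slope on the log2 CPM of either transcript was fitted with group as a term, within each batch: a slope of -0.1 is a change of -0.1 in log2 level for each doubling of the transcript.

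In batch 1 (78 libraries) all 9 slopes on Cd3e were below 0, and 5 of 9 fell with Cd3e in the test, where 54.1% of all 25067 genes had a called slope (28.2% lower, 25.9% higher; 59.1% at an unadjusted p under 0.05, with 6 of 9 members). Meis2 (-0.09, SE 0.02, adjusted p 2.33e-04), Arpp21 (-0.08, SE 0.03, 0.00418), Rarb (-0.09, SE 0.03, 0.00585), Bcl11b (-0.07, SE 0.03, 0.0254) and Foxp2 (-0.08, SE 0.03, 0.0485) were called. Foxp1 (-0.06, adjusted p 0.0512), Drd3 (-0.07, 0.1), Rasd2 (-0.05, 0.205) and Ppp1r1b (-0.05, 0.215) were not. The median slope of the 9 was -0.0733, against -0.0159 for all genes. Without library 19511 all 9 were called, with Foxp1 at -0.08 (adjusted p 0.00737), Drd3 at -0.09 (0.0305), Rasd2 at -0.08 (0.0313) and Ppp1r1b at -0.07 (0.0433). Over the 7 alternative settings of this slope, that one included, 12588 to 14228 of all genes were called, against 13551 with the main setting. Bcl11b was not called without the 2 libraries farthest from the median of Cd3e (adjusted p 0.0503), nor Foxp2 without the low-count filter (0.084). With all libraries kept, Foxp1 was also called with limma-voom (0.0256) and DESeq2's size factors (0.0412), and Drd3 with limma-voom (0.0369). Drd3 was called too without the 4 dominated libraries (0.0247) and without the 2 farthest (0.0212).

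Correlations were computed as well. Over the 78 libraries of batch 1, Meis2 and Cd3e had Pearson r -0.455 and Spearman rho -0.456 (permutation p, adjusted over 72 coefficients, 0.00264 for both). Arpp21 had r -0.329 (adjusted p 0.0402) and rho -0.483 (7.20e-04), and Rarb r -0.296 (0.0852) and rho -0.42 (0.0027). Without the 2 libraries farthest from the median of Cd3e, r was -0.454 for Meis2, -0.398 for Arpp21 and -0.399 for Rarb. Drd3 changed sign: r was 0.254 (adjusted p 0.19) over all 78 libraries, and -0.183 without the 2 farthest. The library in which Drd3 had 0 counts is among those 2.

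Other gene lists were read in the same batch, beside 28.2% of all genes with called negative slopes on Cd3e and 25.9% with called positive ones. The 8 T cell genes all had called positive slopes, as did 4 of 5 astrocyte and 4 of 5 microglia genes, while all 8 cortical and 4 of 5 septal genes had called negative slopes. Of the 16 other striatal genes 5 fell, among them Hpca (-0.09, adjusted p 0.00171), Gad1 (-0.06, 0.00506) and Rgs9 (-0.10, 0.00834). Of the relatives, Ppp1r1a (-0.11, adjusted p 4.21e-06), Bcl11a (-0.09, 1.48e-04) and Arpp19 (-0.10, 2.51e-04) fell and Rara, the retinoic acid receptor alpha, rose (0.24, 5.61e-10); in all 5 of 11 fell and 3 rose. CPM are shares of a library, so a slope is a change relative to all other transcripts, and the part of the T cell, astrocyte and microglia transcripts in the slopes of the 9 genes was not tested.

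On Slc17a7 the 9 genes had no called slope in batch 1 (0 of 9, with 17% of all genes called; at an unadjusted p under 0.05, 0 of 9 and 30.8%; limma-voom also called 0). The slopes ran from -0.02 to 0.02 per doubling, with a median of 0.0091, and the Pearson correlations from -0.124 to 0.173. Meanwhile all 8 cortical and all 5 septal genes had called positive slopes, but 1 of the 8 is Slc17a7, whose slope on itself was fixed in advance. Among the relatives Meis1 fell (-0.11, adjusted p 1.16e-05) and Bcl11a (0.07, 2.48e-04) and Rasd1 (0.08, 0.0411) rose; of the 16 other striatal genes 0 were called, the smallest p being that of Slc32a1 (-0.05, adjusted p 0.122). The paralogs Bcl11b and Bcl11a had slopes of 0.02 (adjusted p 0.57) and 0.07.

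Batch 2 held 9 libraries, in which 0 of 9 slopes were called on either transcript (12.3% of all 25293 genes for Slc17a7, 22.8% for Cd3e). At an unadjusted p under 0.05 there were 0 of 9 on Slc17a7 (31.4% of all genes) and 2 of 9, Foxp1 and Rasd2, on Cd3e (35.9%). Slopes on Slc17a7 were all below 0, from -0.28 (Ppp1r1b) to -0.03 (Bcl11b), and slopes on Cd3e all above 0, from 0.04 (Bcl11b) to 0.32 (Ppp1r1b), where batch 1 had all 9 below 0. Library 3631 (M_D2-control) had the highest Slc17a7 of all 87 libraries, 763.7 CPM, with Cd3e at 0.791 CPM; Rasd2 was at 71.8, Ppp1r1b at 65.4 and Rarb at 33.0 CPM in it. Its summed cortical markers were the highest of all (1177 CPM, median 137.7) and its D1 and D2 markers the lowest (114.3 and 153.4 CPM). Targeted library 3632 followed with Slc17a7 at 639.5, Cd3e at 0.484 and Rasd2 at 163.8 CPM.

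The batch 2 results changed with single libraries. Without M_D2-control 3631 the count over all genes was 152 for the slope on Slc17a7, against 3117 with all 9 libraries. Without M_D2-control 2755, which had the lowest Slc17a7 of the batch (12.4 CPM), 8 of 9 genes had a called negative slope on Slc17a7, such as Ppp1r1b at -0.73 (adjusted p 0.00385) and Rasd2 at -0.63 (0.00533), and limma-voom on all 9 libraries called 7. In these fits 5443 and 5628 of all genes were called, in either direction. Without M_D2-control 3619, 6 of 9 had a called positive slope on Cd3e. For that slope 3080 to 6235 of all genes were called with 1 library left out at a time. Spearman's rho of Rasd2 and Slc17a7 over the 9 libraries was -0.9 (exact permutation p 0.00203, adjusted 0.0292) and Pearson's r -0.624 (adjusted 0.236); without the 2 farthest libraries r was -0.978. For Cd3e the Pearson coefficients ran from 0.25 to 0.672 with all 9 libraries and from -0.377 to 0.204 without the 2 farthest, so the positive relation rests on those 2.

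**Figure D4:**
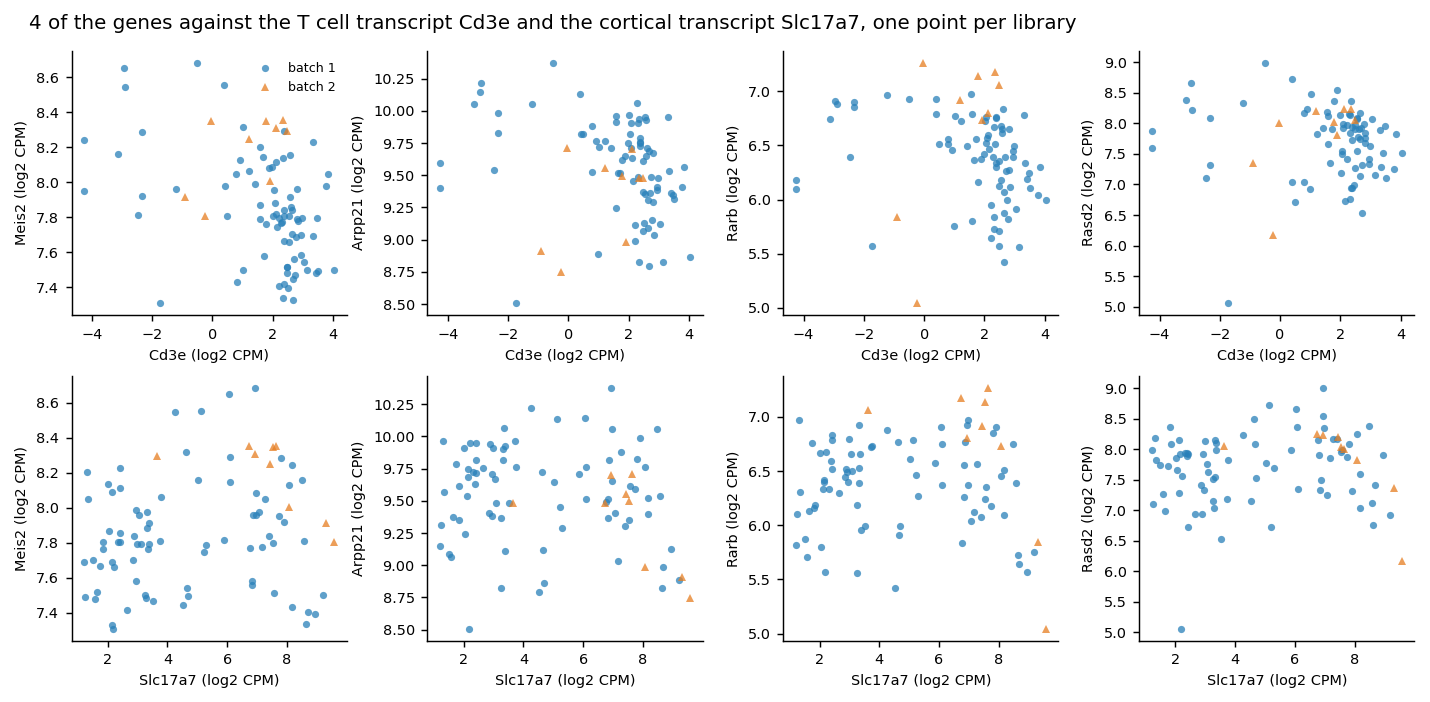
Log2 CPM of Meis2, Arpp21, Rarb and Rasd2 (vertical axes) against log2 CPM of Cd3e (top) and Slc17a7 (bottom), with 1 point per library, circles for the 78 libraries of batch 1 and triangles for the 9 of batch 2. Meis2 falls with Cd3e in batch 1 (r -0.455), and the lone low circle of Rasd2 is M_D1-D2-control 19511.

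The 9 genes varied together across libraries. With group and batch means removed, Pearson's r over the 87 libraries was 0.912 for Ppp1r1b and Rasd2, 0.908 for Ppp1r1b and Foxp1, 0.876 for Bcl11b and Foxp1 and 0.858 for Arpp21 and Rarb. It was 0.352 for Bcl11b and Rarb. With Drd3, whose counts are few, it ran from 0.21 with Bcl11b, the lowest of all pairs, to 0.499 with Rarb. These are descriptions: the libraries share depth and tissue makeup. The 3 libraries named next were each among the highest 5 for 5 of the genes: F_D1-D2-targeted 19596, F_D1-D2-control 19750 and M_D1-D2-control 19512, with member sums of 3917, 3413 and 3300 CPM.

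Among 14272 genes with a mean of at least 1 CPM, the 2 closest patterns (Pearson's r of log2 CPM with group and batch means removed, 87 libraries) were read for each member. Ppp1r1b was closest to Pde1b (0.953), a phosphodiesterase, and Drd2 (0.951), Rasd2 to Scn4b (0.959) and Tgfa (0.924), and Arpp21 to Dgkb (0.886) and Drd1 (0.883). Bcl11b was closest to Smpd3 (0.933) and Ppp1r9a (0.923), Foxp1 to Drd2 (0.929) and Gnal (0.922), and Foxp2 to Gucy1a1 (0.909) and Gprin3 (0.877). Meis2 was closest to Slmap (0.898) and Pde8b (0.872), Rarb to Drd1 (0.908) and Gpr6 (0.905), and Drd3 to Efcc1 (0.89) and Tmc3 (0.89).

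**Figure D5:**
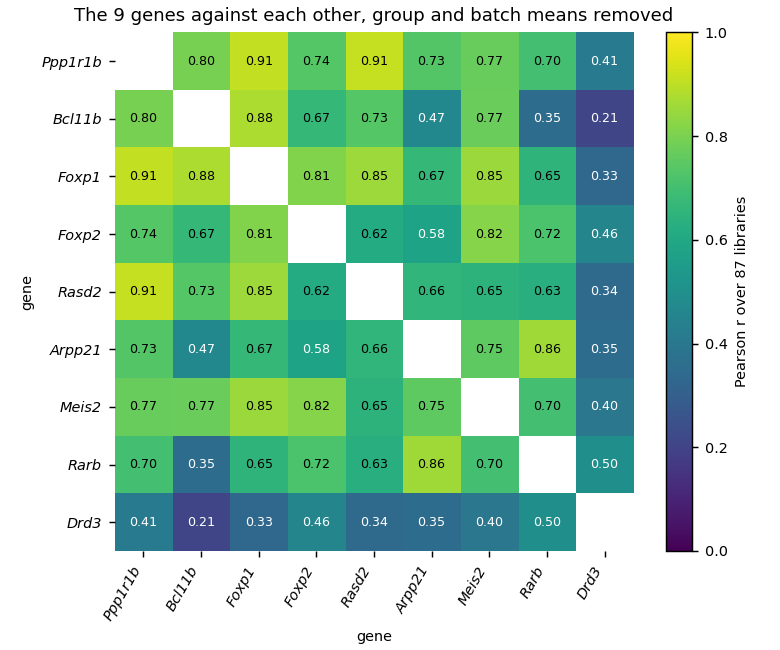
Pearson's r between each pair of the 9 genes over the 87 libraries, on log2 CPM with group and batch means removed; both axes list the genes and colour gives r from 0 to 1. The highest value is that of Ppp1r1b and Rasd2 (0.912), and the lowest that of Bcl11b and Drd3 (0.21).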

How the data were processed

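Total RNA of nucleus accumbens was sequenced from 88 labelled libraries, made with a TruSeq Stranded Total RNA Gold kit per the labels' protocols. The deposited values are read counts per gene, whole numbers with no normalization by the authors. Named in the submitters' processing notes are HISAT2, Trim Galore, featureCounts, Subread, SAMtools, DESeq2 1.27 and the build mm10; their roles, the gene annotation and the strand setting are not stated there. Of the labelled libraries 87 were used, 1 matched no column of the table, and 1 column matched no label and was not used. Symbols were matched by gene identifier (300 without the version; 93 of 55487 genes had none), and positions and exon lengths are those of GENCODE M21.

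The counts went into edgeR 4.0.16 under R 4.3.3 (robust quasi-likelihood, TMM, filterByExpr, which left 25420 genes), with 12 groups and sequencing batch as terms and Benjamini-Hochberg adjustment over all genes, with calls at 0.05. A log2 CPM has a prior count of 2. Slopes were fitted within batch with group as a term. Correlations used permutation tests (100000 resamples in batch 1, exact in batch 2) in SciPy 1.17.1. Alternatives were limma 3.58.1 (voom with quality weights), DESeq2 1.42.0 (Wald test and size factors), no filter, other covariates, and libraries left out; those added after the data were seen are named in the closing section. The scripts were tested on simulated data.

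The 9 genes, the 16 other striatal genes, the 11 relatives and the marker lists were chosen with earlier results of these data known. All 9 are described; of the other striatal genes and relatives at most 4 per comparison are named, by smallest p among those called, or else the gene with the smallest p, and per member the 2 genes of most similar pattern. The values of 1 gene that this rule names are not reported here. Depth, from 12430387 to 69568367 counts, limits Drd3 most. Replicate numbers were library numbers, which pair no libraries.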

Additional observations from a re-analysis of the deposited data

Results flagged for a closer look

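Of 132 sets of 1 transcript in 1 group of 4 to 10 libraries, 17 had a highest or lowest library standing apart from the others by Dixon's criterion, 6 of them among the 99 sets of the 9 genes. Chance alone flags about 1 in 20 sets.

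Ppp1r1b was at 539.4 CPM in M_D1-D2-targeted 19211, where the next highest of the 4 libraries had 344.6. Foxp2 was at 107.2 CPM in F_D1-control 19755 (next 59.8 CPM), and Rarb at 108.6 CPM in F_D2-targeted 18142 (next 84.1 CPM). Standing low were Meis2 at 171.1 CPM in M_D1-control 18069 (next 223.7 CPM), Rarb at 63.7 CPM in M_D1-targeted 18130 (next 90.3 CPM), and Drd3 at 1.67 CPM in M_D2-control 3631 (next 5.36 CPM).

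Cd3e stood high at 11.3 CPM in F_D2-control 17909 and at 14.3 CPM in M_D1-D2-control 19107. Slc17a7 stood high in 7 groups: 584.8 CPM in F_D2-control 17906, 287.6 CPM in M_D1-targeted 18368, 382.2 CPM in M_D1-control 18383, 289.1 CPM in M_D1-D2-targeted 18919, 394.6 CPM in M_D1-D2-control 19219, 639.5 CPM in M_D2-targeted 3632 and 763.7 CPM in M_D2-control 3631. Fosb stood high at 13.3 CPM in F_D2-targeted 17907, 1 of the 4 libraries dominated by few genes, and at 11.9 CPM in F_D2-control 17910.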

How the results depend on the processing

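The calls between guides were 0 of 9 genes in every arm under every setting tried. In all, 267 of 286 recomputed counts of called members stayed within 1.5 times the reported count, and of 1476 recomputed values of single genes 1367 kept their direction and their side of the threshold, 2 lost a call, 36 gained one and 71 changed sign, none of them a called value and none beyond 0.13 from 0 after the change. Of 126 recomputed correlations 115 moved by less than the limit set for them. The settings that leave out 19511, 3631 or the 2 farthest libraries, and those of the batch 2 slopes, were added after the data were seen. For differences between control groups and tests over groups, so were batch 1 alone, Cd3e as a covariate and leaving out the 4 dominated libraries. Correlations without those 4 were added too. Fits without 1 M_D1-control or M_D1-D2-targeted library were also added, except for the guide effect of its own arm. No paired analysis was possible because the libraries carry library numbers, with none shared between groups. DESeq2's likelihood ratio test was not run, so the tests over groups have no DESeq2 value. Where a cause is not given, the cause was not tested. Depth limits Drd3, whose counts are few.

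Counts of called members changed as follows, with the reported count in brackets. With limma-voom it was 1 (0) for M_D1-D2-control minus M_D1-control, 3 (1) for the test over 6 control groups, 3 (0) for the test over 12 groups and 7 (0) for the slope on Slc17a7 in batch 2. With DESeq2's size factors it was 0 (1) for the test over 6 control groups. With no filter on low counts it was 0 (1) for the test over 6 control groups. Without 19511 and 3631 it was 2 (0) for M_D1-D2-control minus M_D1-control, 2 (1) for the test over 6 control groups and 2 (0) for the test over 12 groups. With Cd3e as a covariate it was 1 (0) for M_D1-D2-control minus M_D1-control and 2 (1) for the test over 6 control groups. Without the 4 dominated libraries it was 0 (1) for the test over 6 control groups. Without 19511 it was 9 (5) for the slope on Cd3e in batch 1. Leaving out 1 library at a time gave 0 to 0 (1) for the test over 6 control groups, 0 to 8 (0) for the slope on Slc17a7 in batch 2 and 0 to 6 (0) for the slope on Cd3e in batch 2.

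Counts of all genes called changed as follows, with the reported count in brackets. With limma-voom it was 0 (1) for F_D1, 747 (0) for M_D1, 0 (16) for M_D2, 194 (0) for F_D1-D2, 0 (1) for M_D1-D2, 26 (1) for D1 over both sexes, 0 (1) for the D1 minus D2 effect, 3 (5) for F_D2-control minus F_D1-control, 52 (1) for F_D1-D2-control minus F_D1-control, 8898 (2567) for M_D1-D2-control minus M_D1-control, 10070 (4193) for the test over 6 control groups, 10563 (4173) for the test over 12 groups, 7111 (4250) for the slope on Slc17a7 in batch 1 and 5628 (3117) for the slope on Slc17a7 in batch 2. With each arm fitted alone it was 0 (1) for F_D1, 0 (16) for M_D2 and 0 (1) for M_D1-D2. With the DESeq2 Wald test it was 0 (1) for F_D1, 4 (0) for F_D2, 5 (16) for M_D2, 2 (0) for F_D1-D2, 7 (0) for D1-D2 over both sexes and 2 (1) for the D1 minus D2 effect. Without 17376, 18722 and 18749 it was 1 (0) for M_D1, 0 (1) for D1 over both sexes and 1 (0) for D1-D2 over both sexes. With Cd3e as a covariate it was 7 (0) for F_D2, 0 (1) for M_D1-D2, 0 (1) for the D1 minus D2 effect and 6363 (4193) for the test over 6 control groups. With no filter on low counts it was 122 (16) for M_D2, 0 (1) for D1 over both sexes, 3 (5) for F_D2-control minus F_D1-control and 1483 (2567) for M_D1-D2-control minus M_D1-control. With no batch term it was 427 (16) for M_D2. With batch 1 alone it was 0 (16) for M_D2, 0 (1) for D1 over both sexes and 0 (1) for the D1 minus D2 effect. Without the 4 dominated libraries it was 0 (1) for M_D1-D2, 0 (1) for D1 over both sexes and 3 (5) for F_D2-control minus F_D1-control. With Slc17a7 as a covariate it was 0 (1) for D1 over both sexes. Without 19511 and 3631 it was 0 (1) for D1 over both sexes and 4625 (2567) for M_D1-D2-control minus M_D1-control. With both transcripts in 1 model it was 2211 (4250) for the slope on Slc17a7 in batch 1, 22 (3117) for the slope on Slc17a7 in batch 2 and 292 (5772) for the slope on Cd3e in batch 2. Without the 2 farthest libraries it was 2743 (4250) for the slope on Slc17a7 in batch 1. Leaving out 1 library at a time gave 0 to 4 (1) for M_D1-D2, 0 to 1 (1) for D1 over both sexes, 0 to 1 (0) for D1-D2 over both sexes, 0 to 2645 (2567) for M_D1-D2-control minus M_D1-control, 2610 to 3995 (4193) for the test over 6 control groups, 152 to 5443 (3117) for the slope on Slc17a7 in batch 2 and 3080 to 6235 (5772) for the slope on Cd3e in batch 2.

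Uncalled values of single genes changed sign as follows. In F_D1, Drd3, 0.040, turned to -0.043 (limma-voom) and -0.036 (without 17376, 18722 and 18749). In M_D1, Rarb, 0.012, turned to -0.043 (DESeq2's size factors), -0.033 (limma-voom), -0.0077 (batch 1 alone), -0.0091 (without the 4 dominated libraries), -0.0032 (without 17376, 18722 and 18749), -0.041 (each arm fitted alone) and -0.043 (the DESeq2 Wald test). In F_D2, Foxp2, 0.022, turned to -0.0048 (limma-voom) and -0.032 (without the 4 dominated libraries). In M_D2, Ppp1r1b, 0.015, turned to -0.017 (DESeq2's size factors), -0.052 (limma-voom), -0.017 (Slc17a7 as a covariate), -0.012 (without 17376, 18722 and 18749), -0.044 (each arm fitted alone), -0.016 (the DESeq2 Wald test) and -0.10 (without 19511 and 3631); Bcl11b, -0.0029, turned to 0.0010 (no filter on low counts), 0.012 (Slc17a7 as a covariate), 0.054 (Cd3e as a covariate) and 0.065 (batch 1 alone); Rasd2, 0.14, turned to -0.080 (no batch term); Foxp1, -0.065, turned to 0.055 (batch 1 alone). In F_D1-D2, Arpp21, -0.12, turned to 0.0082 (Cd3e as a covariate). In F_D2-control minus F_D1-control, Bcl11b, -0.0082, turned to 0.016 (DESeq2's size factors), 0.011 (no filter on low counts), 0.016 (the DESeq2 Wald test), 0 (batch 1 alone), 0.00020 (without the 4 dominated libraries) and 0.014 (Cd3e as a covariate); Arpp21, -0.017, turned to 0.0088 (DESeq2's size factors), 0.0081 (no filter on low counts), 0.021 (limma-voom), 0.0088 (the DESeq2 Wald test) and 0.024 (Cd3e as a covariate). In F_D1-D2-control minus F_D1-control, Rarb, 0.0032, turned to -0.0045 (no filter on low counts), -0.0020 (without the 4 dominated libraries) and -0.13 (Cd3e as a covariate); Foxp2, 0.031, turned to -0.10 (Cd3e as a covariate); Arpp21, 0.086, turned to -0.070 (Cd3e as a covariate); Meis2, 0.16, turned to -0.019 (Cd3e as a covariate). In female minus male controls, Arpp21, 0.0081, turned to -0.067 (DESeq2's size factors), -0.0015 (no filter on low counts), -0.067 (the DESeq2 Wald test), -0.042 (without 19511 and 3631) and -0.0090 (without the 4 dominated libraries). In M_D1-D2, Ppp1r1b, 0.14, turned to -0.035 (without 19511 and 3631); Arpp21, 0.064, turned to -0.046 (without 19511 and 3631). In the slope on Slc17a7 in batch 1, Bcl11b, 0.020, turned to -0.0050 (both transcripts in 1 model); Foxp1, 0.011, turned to -0.013 (both transcripts in 1 model) and -0.0024 (limma-voom); Foxp2, 0.0091, turned to -0.020 (both transcripts in 1 model) and -0.0022 (limma-voom); Rasd2, 0.015, turned to -0.0041 (both transcripts in 1 model); Meis2, 0.013, turned to -0.021 (both transcripts in 1 model); Drd3, 0.0063, turned to -0.018 (both transcripts in 1 model) and -0.011 (limma-voom); Rarb, -0.0041, turned to 0.0016 (limma-voom), 0.0023 (without the 4 dominated libraries) and 0.010 (without the 2 farthest libraries); Arpp21, -0.011, turned to 0.0017 (without the 2 farthest libraries). Leaving out 1 library at a time gave ranges across 0 of -0.012 to 0.12 for Meis2 in M_D1, -0.059 to 0.087 for Rarb in M_D1, -0.026 to 0.42 for Foxp2 in M_D1-D2, -0.052 to 0.20 for Arpp21 in M_D1-D2, -0.017 to 0.32 for Rarb in M_D1-D2, -0.054 to 0.0072 for Rarb in female minus male controls, -0.014 to 0.057 for Arpp21 in female minus male controls and -0.15 to 0.0088 for Bcl11b in the slope on Slc17a7 in batch 2.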
